A study of Mus musculus with 34 samples.

Results

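The genes described here are 6 enzymes of the activated myeloid cell, Acod1, Ch25h, Nos2, Ptgs2, Sod2 and Arg1, out of 21938 protein-coding genes in the mouse annotation. They were chosen from earlier results on the same peak lists, in which Acod1 and Ch25h stood out for p65, SMC1 and H3K27ac peaks, so their peak values are a description of these libraries and no test was made on them. The assay was ChIP-seq in GM-CSF bone marrow-derived dendritic cells (BMDCs), in which fragments bound by an antibody are sequenced and piled up into peaks over the GRCm38 (mm10) genome. Bone marrow of C57BL/6 mice aged 8 weeks was cultured with GM-CSF for 6 days, and 4-hydroxytamoxifen was present on the first day in every culture. Every culture carried the tamoxifen-inducible CreER, which was alone in the WT groups and was combined with loxP-flanked Ctcf alleles (CreER;CTCF fl/fl) in the KO groups. The 4 conditions were unstimulated cells (WT and KO) and cells given LPS at 100 ng/ml for 3 h (WTLPS and KOLPS). STAT5 was profiled only in WT and KO cells, after GM-CSF had been renewed for 15 min. Of 34 samples, 30 have a list of peaks, which is 1 per combination of antibody and condition, and the 4 inputs have none. The study describes biological replicates that were merged, and the labels do not say whether a list stands for one of them or for the merged data. The lists therefore give no spread between replicates, and every interval below covers counting error only.

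LPS, a component of the bacterial cell wall, is sensed by TLR4 and releases the transcription factor NF-κB, of which p65 (RelA) is the main activating subunit, to the promoters and enhancers of inflammatory genes. CTCF binds DNA directly, and SMC1 is a subunit of cohesin, the ring complex that extrudes chromatin loops and stalls at CTCF. H3K27ac marks active promoters and enhancers, H3K4me3 marks promoters, H3K4me1 marks enhancers and H3K27me3 marks Polycomb-repressed chromatin. Acod1 makes itaconate from the TCA cycle intermediate cis-aconitate. Ch25h makes 25-hydroxycholesterol, an antiviral and immunomodulatory oxysterol. Nos2 is the inducible nitric oxide synthase, and Arg1 is the arginase that competes with it for arginine. Ptgs2 (COX-2) makes the precursor of the prostaglandins, and Sod2 is the superoxide dismutase of mitochondria.

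The lists held between 504 and 96475 peaks. CTCF peaks numbered 60537 (WT), 54020 (WTLPS), 20151 (KO) and 11576 (KOLPS), the only check of the deletion that peak lists give. Total read counts cannot be read from a peak list, but the background of fragments per base could be recovered, and for p65 it lay between 0.705 and 0.855 in the 4 libraries. At that background a p65 peak needed at least 6 or 7 fragments, so a site without a peak may have held fewer than that. For H3K27ac the same background was 1.173 in WT and 1.198 in WTLPS but 0.748 in KO and 0.801 in KOLPS, and that list covered 60.9, 59.6, 41.3 and 32.4 Mb in the same order. None of 5 T cell genes had an H3K4me3 promoter peak, whereas 14 of 15 dendritic and myeloid marker genes had one in every list, the exception being H2-Ab1. So had 1 of 4 B cell markers (Pax5), 1 of 4 erythroid markers (Klf1) and 1 of 4 neutrophil markers (S100a8), 3 or 4 of 4 macrophage markers, and 2 or 3 of 3 epithelial markers. H3K4me3 also marks the promoters of genes with little transcription, and the part of other cells in the results below was not tested.

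The members were found by symbol in GENCODE, and positions are GRCm38 counted from 1. Acod1 (ENSMUSG00000022126.6) lies at chr14:103046977-103056573 on the plus strand and Ch25h (ENSMUSG00000050370.5) at chr19:34473778-34475164 on the minus strand. Nos2 (ENSMUSG00000020826.8) lies at chr11:78920787-78960254 on the plus strand and Arg1 (ENSMUSG00000019987.9) at chr10:24915221-24927484 on the minus strand. Ptgs2 (ENSMUSG00000032487.8) lies at chr1:150100031-150108227 and Sod2 (ENSMUSG00000006818.5) at chr17:13006846-13040063, both on the plus strand. A promoter was taken as 2.5 kb either side of the transcription start, and a wider window as 100 kb either side. Within that window Ptgs2 had no other protein-coding start and Sod2 had 8, so a peak near Sod2 is the most open to another gene. Acod1 had 3, and Ch25h (Lipa and Ifit2), Nos2 (Lgals9 and Lyrm9) and Arg1 (Med23 and Enpp3) had 2 each.

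The sequences at the summits of the p65 peaks are shown first, because p65 gave the plainest contrasts between members and because its DNA motif, the κB site, can be looked for in them. Each run is 101 bases centred on the summit of the WTLPS peak, except that the longer runs for Ptgs2 span both summit and motif. Capitals mark a match to the κB consensus, and for the Acod1 distal site the stretch taken up by 2 overlapping matches that each have 1 mismatch. The first is the strongest p65 site near these genes, in an intron of Sod2 (chr17:13010192-13010292, plus strand). Next come the Acod1 promoter (chr14:103046832-103046932, plus strand) and the Acod1 site 30.9 kb upstream, in an intron of Gm34643 (chr14:103015997-103016097, plus strand). It is followed by the intergenic Ch25h site 24.0 kb downstream of its start (chr19:34451130-34451230, minus strand). The last are the Ptgs2 promoter, in an exon of the antisense gene Ptgs2os (chr1:150099676-150099900, plus strand), and the intergenic Ptgs2 site 97.8 kb downstream (chr1:150197826-150197999, plus strand).
Sod2 intron site: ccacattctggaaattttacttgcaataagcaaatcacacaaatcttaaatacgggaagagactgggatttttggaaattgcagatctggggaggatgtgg
Acod1 promoter site: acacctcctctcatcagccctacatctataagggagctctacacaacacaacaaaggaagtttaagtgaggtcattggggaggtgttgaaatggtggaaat
Acod1 distal site: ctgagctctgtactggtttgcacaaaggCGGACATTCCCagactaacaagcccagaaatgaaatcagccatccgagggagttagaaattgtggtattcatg
Ch25h distal site: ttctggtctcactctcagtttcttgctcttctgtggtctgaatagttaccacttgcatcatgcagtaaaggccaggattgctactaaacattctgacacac
Ptgs2 promoter site: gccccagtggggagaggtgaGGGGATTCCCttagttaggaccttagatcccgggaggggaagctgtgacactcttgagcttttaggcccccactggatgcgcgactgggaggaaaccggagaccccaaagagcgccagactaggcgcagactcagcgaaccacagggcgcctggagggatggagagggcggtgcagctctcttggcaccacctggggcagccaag
Ptgs2 distal site: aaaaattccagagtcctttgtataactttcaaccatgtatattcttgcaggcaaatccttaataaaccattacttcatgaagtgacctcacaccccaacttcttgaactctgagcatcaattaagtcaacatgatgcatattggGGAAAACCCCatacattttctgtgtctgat

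Exact κB matches were few at these sites. Within 50 bp of the summit, 1 of the 23 WTLPS sites of the members held one, the Nos2 site 33.6 kb upstream, against 11.9% of all WTLPS p65 peaks. Allowing 1 mismatch gave 2 of 23. Anywhere within the site there were 4 of 23 (17.4%), 2 of Nos2 and 2 of Ptgs2, against 24.5% of all WTLPS p65 peaks. The Ptgs2 promoter match began 184 bp from the summit and the distal Ptgs2 match 124 bp from it, outside the 50 bp searched around summits. No exact match was found in the Sod2, Acod1 or Ch25h sites. The RefSeq promoter of Sod2 (250 bases before to 50 after the start, chr17:13007589-13007888) did hold one, as did 4.51% of 32851 RefSeq promoters, while its p65 peak lay over 2 kb further on, in the intron. The RefSeq promoters of Acod1, Ch25h and Ptgs2 held none, and Nos2 and Arg1 were not searched this way. A match or its absence describes only the letters in these windows.

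**Figure D1:**
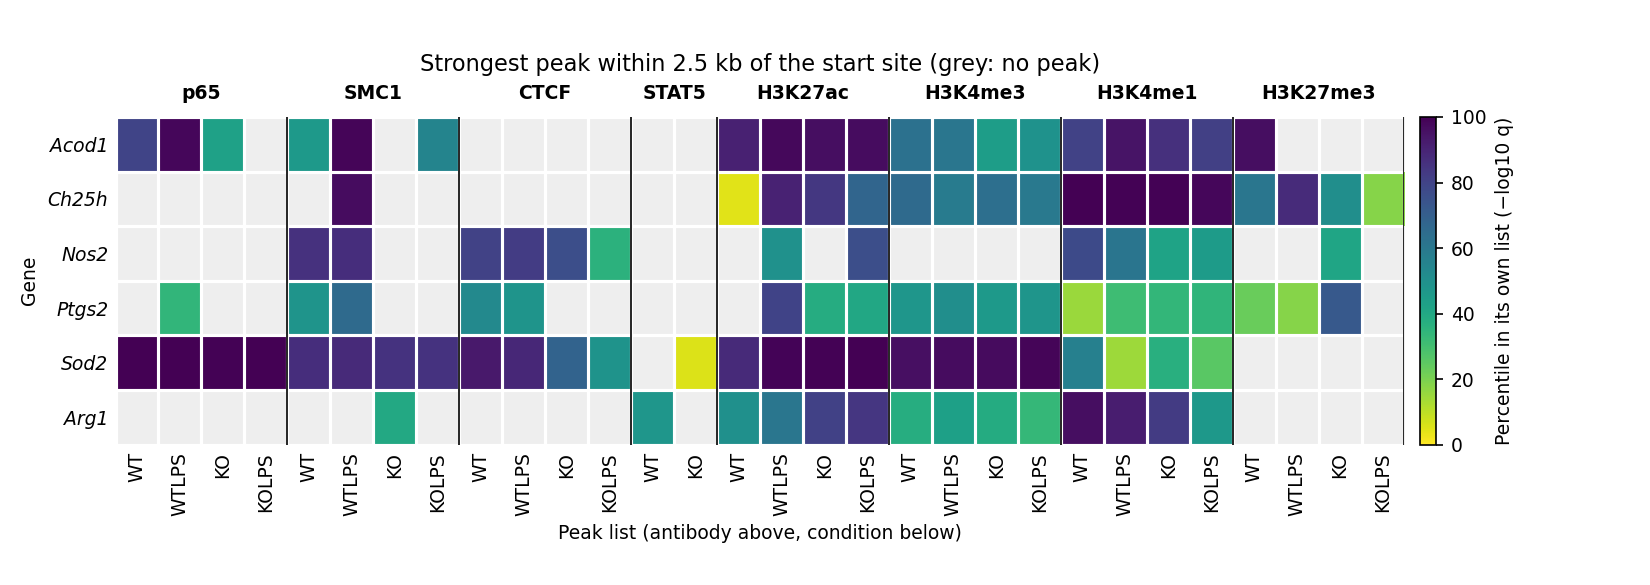
Strongest peak at the promoter of each member (rows) in each of the 30 lists (columns, by antibody and condition), coloured by its percentile within its own list by −log10 q (0 weakest, 100 strongest), with grey where there is no peak. Sod2 is near the top of the p65 list in all 4 conditions (rank 1 to 3), Nos2 is grey for p65 and H3K4me3, and Arg1 is grey for p65 and CTCF.

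At promoters, p65 peak calls divided the 6 genes into those with a peak before stimulation, those with one only after LPS and those with none. Sod2 carried a p65 peak in all 4 conditions, as 0.214% of all protein-coding genes did. Acod1 had peaks in WT, WTLPS and KO and none in KOLPS, a pattern found at 0.0319% of genes. Ptgs2 had a peak in WTLPS alone, as 1.8% of genes did. Ch25h, Nos2 and Arg1 had no p65 promoter peak in any list, as was so for 96.1% of genes. In all, 2, 3, 2 and 1 of the 6 promoters had a p65 peak in WT, WTLPS, KO and KOLPS, where 0.501%, 2.86%, 0.369% and 1.95% of all promoters did. These shares stand beside the members' counts as background, since the members were selected on such peaks.

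The p65 peak of Sod2 was among the strongest in the genome in every condition. It lay at chr17:13009768-13010795 in WTLPS, with its summit in an intron 2.246 kb downstream of the start and 98 bp from the start of another annotated Sod2 transcript. Its fold enrichment over background was 37.9 in WT (rank 3 of the list), 87.8 in WTLPS (rank 1), 29.9 in KO (rank 2) and 41.8 in KOLPS (rank 3). WTLPS was the highest and the unstimulated KO the lowest, with WT and KOLPS between them. The summit held 64, 162, 50 and 75 fragments, which is 89.8, 189, 70.9 and 91.8 per unit of background coverage. Relative to WT, WTLPS was 2.11-fold higher (95% interval 1.57 to 2.87). The ratio of KOLPS to KO was 1.29 (0.893 to 1.89), whose interval includes no change, and that of KOLPS to WTLPS was 0.484 (0.363 to 0.641). The ratio of KO to WT was 0.790 (0.535 to 1.16), not distinguishable from 1 by counting error. This was also the most widely occupied site of the 6 genes, with a peak in 25 of the 30 lists, SMC1, CTCF, H3K27ac, H3K4me3 and H3K4me1 in all 4 conditions included.

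The Acod1 promoter peak lay 95 bp upstream of the start (chr14:103046621-103047200 in WTLPS). Its fold enrichment was 11.1 in WT, 26.1 in WTLPS and 7.13 in KO, with ranks of 161, 106 and 288, and no peak was called in KOLPS. The summit held 23 fragments in WT, 54 in WTLPS and 14 in KO. WTLPS exceeded WT 1.96-fold (1.18 to 3.34), and KO stood at 0.616 of WT (0.293 to 1.25), an interval that includes 1. Ahead of the gene lay a row of further p65 peaks, in the introns of 4933432I03Rik and Gm34643 and between genes. The site 30.9 kb upstream had folds of 8.76 in WT, 18.9 in WTLPS and 8.26 in KOLPS, from 14, 34 and 14 fragments. There WTLPS was 2.03-fold above WT (1.06 to 4.09) and KOLPS stood at 0.431 of WTLPS (0.214 to 0.824). The site 9.72 kb upstream gave folds of 8.17, 10.8 and 5.50 in the same conditions, and its ratio of KOLPS to WTLPS, 0.496, had an interval of 0.198 to 1.15. One Acod1 site went the other way: 39.0 kb upstream the fold was 4.85 in WTLPS and 8.81 in KOLPS, from 8 and 15 fragments, with a ratio of 1.96 (0.781 to 5.34). Its direction is therefore not settled by these counts. A site 17.6 kb upstream was seen in KOLPS and not in WTLPS, with a fold of 7.15.

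Ch25h had its p65 peaks away from the promoter. The strongest, 24.0 kb downstream of the start (chr19:34450969-34451434), had a fold of 5.84 in WT, 32.9 in WTLPS and 6.60 in KOLPS, and no peak in KO. It held 9, 60 and 11 fragments, and its rank in the WTLPS list was 66. WTLPS was 5.56-fold above WT (2.74 to 12.7), and KOLPS stood at 0.192 of WTLPS (0.0910 to 0.368), the lowest such ratio of the sites with a peak in both. SMC1 and H3K4me1 had a peak there in all 4 conditions, whereas H3K27ac had one in WTLPS and KOLPS and in neither unstimulated list. The other 6 Ch25h sites were seen in WTLPS alone, with folds between 5.39 and 9.70. They lay at 45.3 kb upstream, in an intron of Lipa, and between 30.1 and 72.2 kb downstream.

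**Figure D2:**
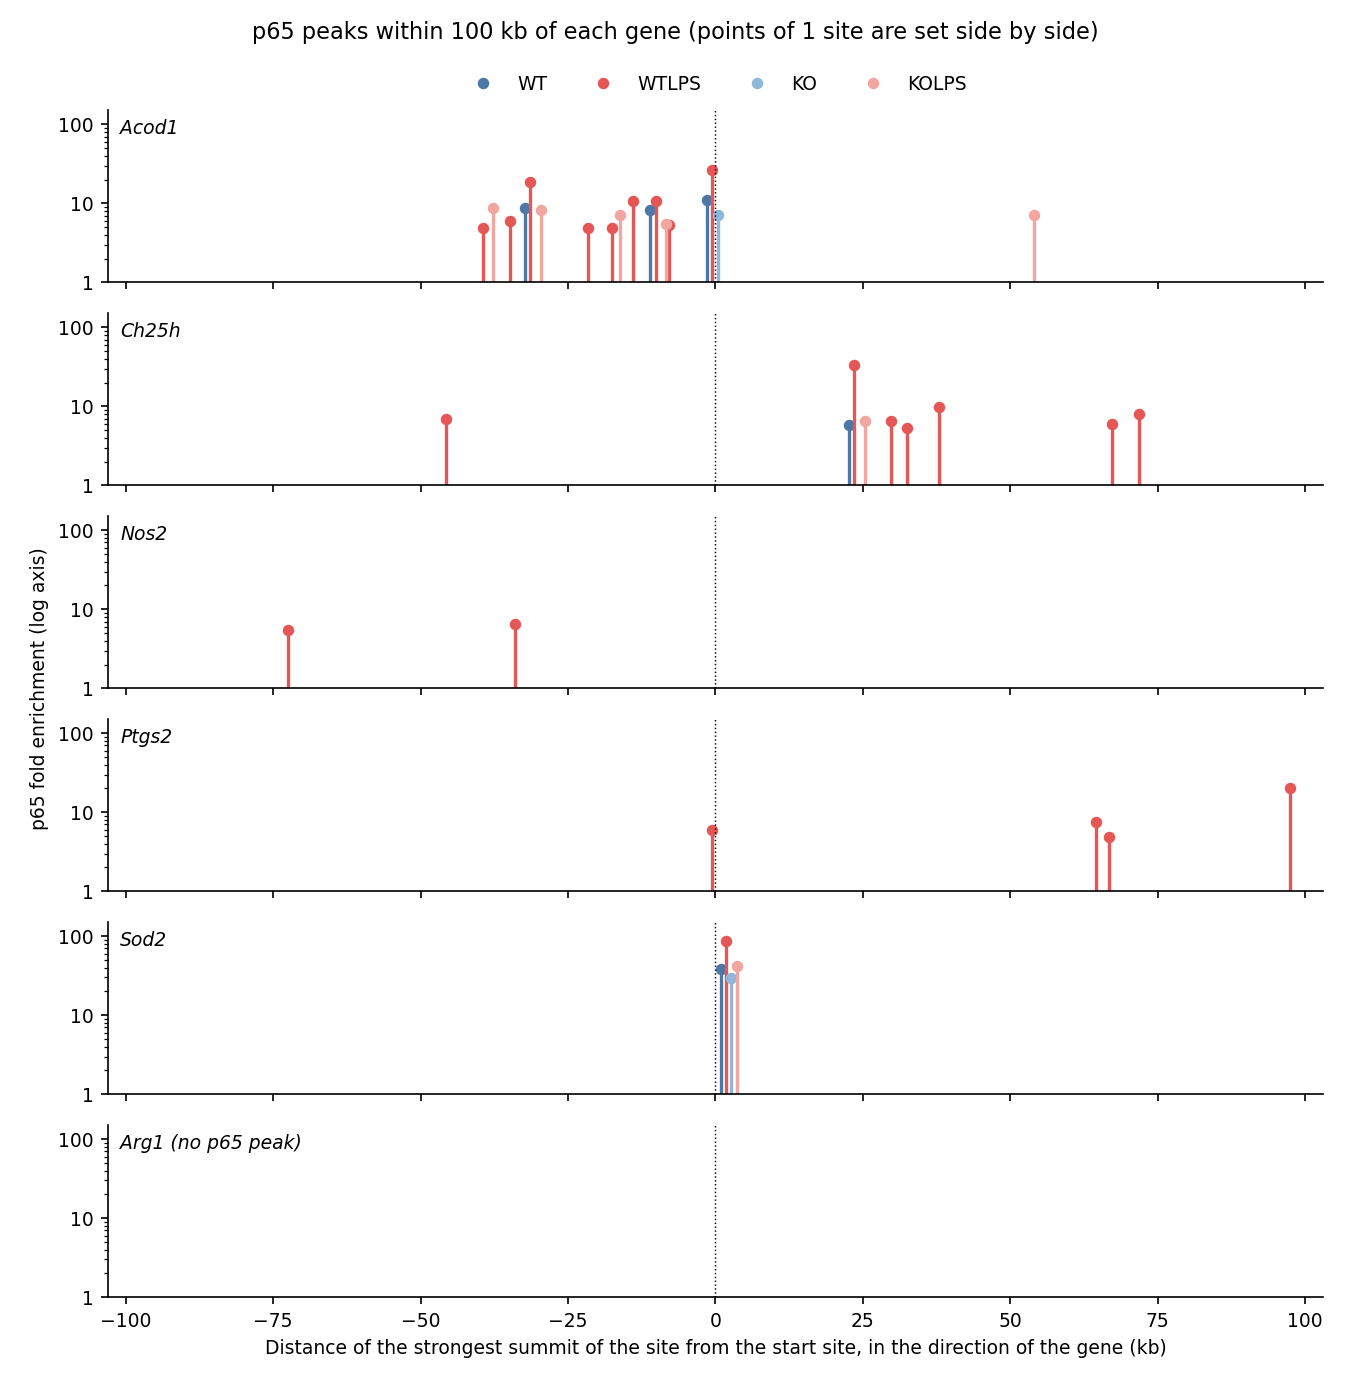
Fold enrichment (y axis, log scale) of the p65 peaks within 100 kb of the start of each member against distance from that start in the direction of transcription (x axis, kb), coloured by condition, with the points of a site set side by side. Acod1 and Ch25h carry the most peaks, 9 and 7 in WTLPS, Nos2 and Ptgs2 carry peaks in WTLPS only, and Arg1 carries none.

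For Ptgs2 every p65 peak was in WTLPS. The promoter peak, 151 bp upstream, was weak, with a fold of 5.93 from 10 fragments and rank 3600. The peak 97.8 kb downstream was far stronger, with a fold of 20.5 from 37 fragments and rank 259, and those at 65 and 67.2 kb had folds of 7.55 and 4.85. Nos2 had 2 p65 peaks, 33.6 and 72.0 kb upstream with folds of 6.47 and 5.39, both in WTLPS alone. Of all genes, 16.5% likewise had p65 peaks in the window in WTLPS and in no other list. Arg1 had no p65 peak within 100 kb in any condition, as was the case for 63.4% of genes.

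Over the whole windows, in the order WT, WTLPS, KO, KOLPS, the p65 peaks of Acod1 numbered 3, 9, 1 and 5, and Ch25h had 1, 7, 0 and 1. Nos2 had 2 and Ptgs2 had 4, all in WTLPS, and Sod2 had 1 in each condition. At least as many WTLPS peaks in the window as at Acod1 were found at 0.201% of protein-coding genes. The share was 0.688% for Ch25h, 4.39% for Ptgs2, 15.5% for Nos2 and 33.1% for Sod2. Acod1 and Ch25h were chosen partly for such peaks in these same lists, so their low shares follow from the choice. Peaks were more numerous in WTLPS than in WT at 4 of the 6 genes (30.2% of all genes), and fewer in KOLPS than in WTLPS at 4 (26.1%). KOLPS exceeded KO at 2 (15%). Summed over the members, the counts were 5, 23, 2 and 7. The ratio of WTLPS to WT was 4.6 (1.71 to 15.5) where the sum over all genes gave 6.24, and that of KOLPS to WTLPS was 0.304 (0.110 to 0.733) where all genes gave 0.395. Both intervals for the members include the value over all genes. Without Acod1 the ratios of peak numbers were 7 and 0.143. In bases covered over all 6 members they were 7.07 and 0.192. These alternatives lie within the members' intervals above, and the p65 values over all genes in bases covered are not given here.

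**Figure D3:**
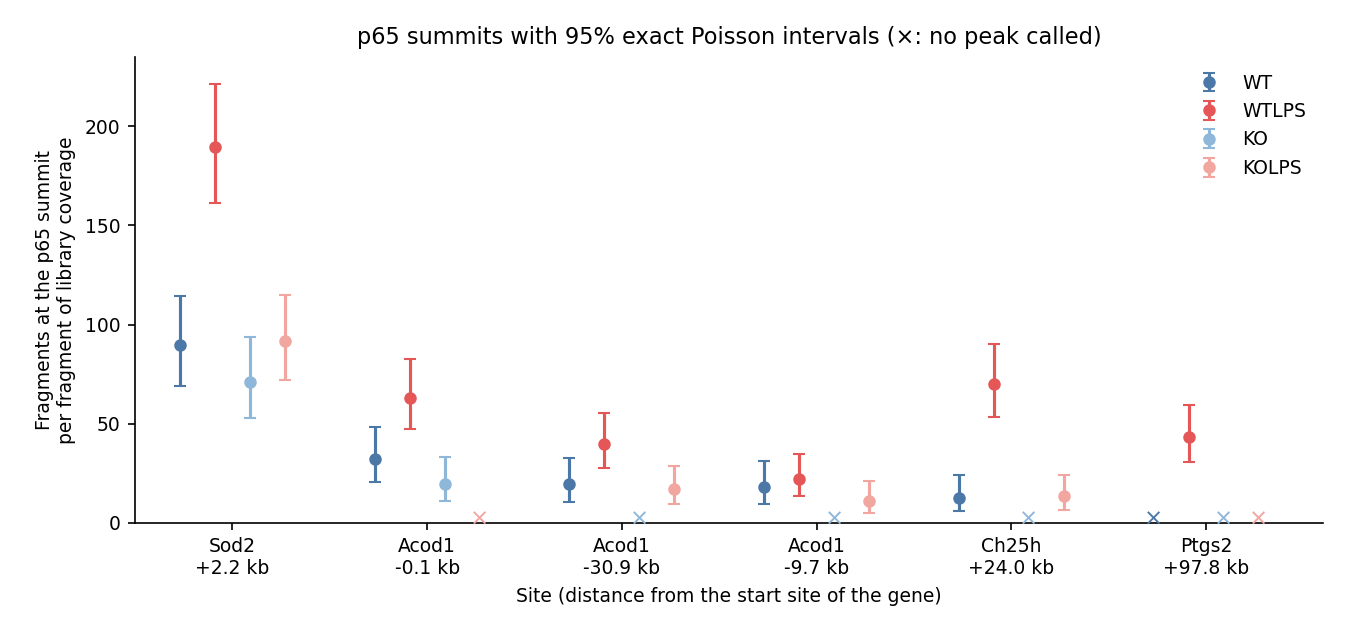
Fragments at the p65 summit per fragment of background coverage (y axis), with exact 95% Poisson intervals for counting error, at 6 sites of Sod2, Acod1, Ch25h and Ptgs2 in each condition, a cross marking no called peak. The Sod2 intron site is the highest in every condition (70.9 to 189), and the Ch25h site stands at 70.2 in WTLPS, 12.6 in WT and 13.5 in KOLPS.

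There were 25 separate p65 sites, of which 23 had a peak in WTLPS and 18 of those none in WT. A KOLPS peak overlapped 5 of the 23 WTLPS sites (21.7%), close to the 22.7% of all WTLPS p65 peaks. Most other lists stood near their share at p65 peaks in general. SMC1 of WTLPS lay at 20 of the 23 (87% against 88%), H3K27ac of WTLPS at 19 (82.6% against 75.4%), H3K4me1 of WT at 21 (91.3% against 89.1%) and STAT5 of WT at 7 (30.4% against 27%). H3K27ac of WT lay at 12 (52.2% against 64.6%). CTCF lay at 2 (8.7%), the Sod2 site and an Acod1 site 34.4 kb upstream, in each of its 4 lists, where 7.76%, 6.33%, 1.81% and 1.04% of all WTLPS p65 peaks carried CTCF of WT, WTLPS, KO and KOLPS.

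H3K27ac peaks covered more bases around 5 of the 6 genes in LPS-stimulated cells. At Ch25h the bases covered by H3K27ac peaks within the window were 33.7, 75.5, 25.2 and 32.0 kb in WT, WTLPS, KO and KOLPS. At Acod1 they were 30.8, 44.9, 29.8 and 36.2 kb. At Ptgs2 they were 0.8, 14.2, 2.23 and 5.23 kb, with the smallest unstimulated value of the 6. Nos2 went from 4.71 to 10.04 kb in WT cells and from 2.90 to 6.63 kb in KO cells, and Sod2 from 12.9 to 17.6 and from 12.4 to 13.2 kb. Arg1 went the opposite way, from 2.77 to 1.18 kb and from 3.19 to 1.91 kb. Only Arg1 among the 6 thus had less covered after LPS, and it did so in both genotypes. Over all genes, fewer bases were covered in WTLPS than in WT at 49.5%, and in KOLPS than in KO at 63%.

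As ratios of WTLPS to WT these are 2.24 for Ch25h, 1.46 for Acod1, 17.8 for Ptgs2, 2.13 for Nos2, 1.36 for Sod2 and 0.425 for Arg1, where the sum over all genes gave 0.9196. The ratios of KOLPS to KO were 1.27, 1.22, 2.34, 2.29, 1.07 and 0.599 in the same order, with 0.778 over all genes. More bases were covered in WTLPS than in WT at 29.6% of all genes and in KOLPS than in KO at 15.7%. Between genotypes after LPS, fewer bases were covered in KOLPS at 5 of the 6 (67.2% of genes), with ratios of 0.424 for Ch25h and 0.368 for Ptgs2, below the 0.629 over all genes. Acod1 (0.804), Sod2 (0.751) and Nos2 (0.660) lay above it, and Arg1 was at 1.62. The lower background coverage of both KO libraries for H3K27ac stands beside this comparison, and its part in it was not tested.

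**Figure D4:**
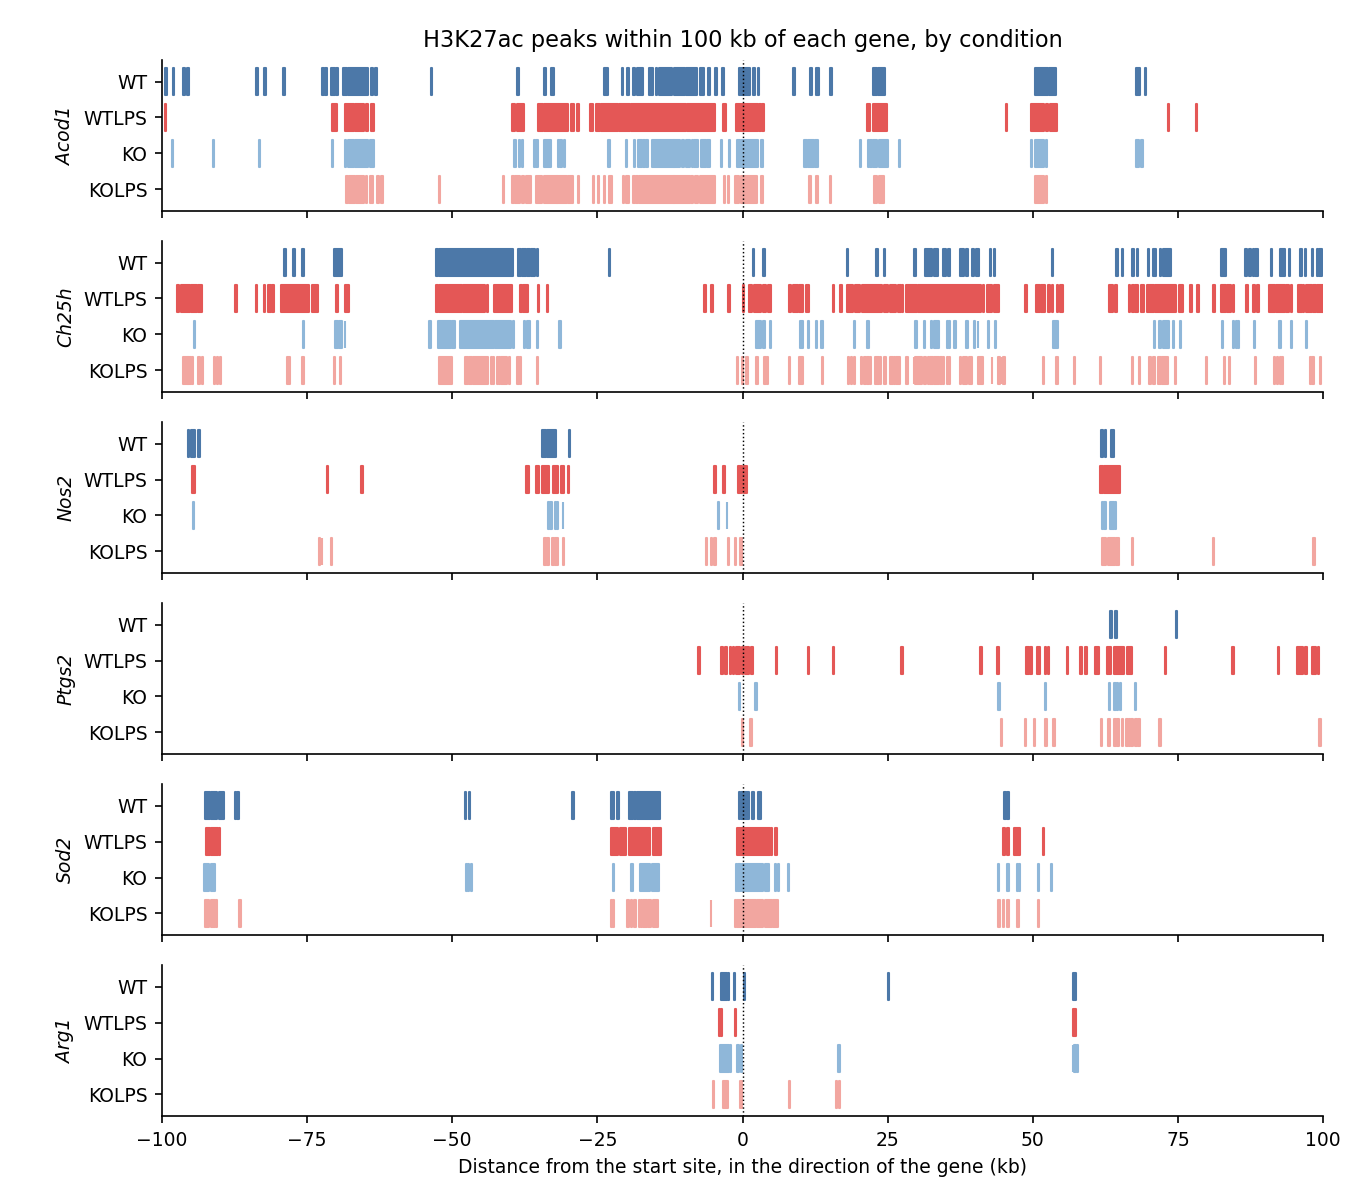
H3K27ac peaks within 100 kb of the start of each member (x axis, distance from the start in kb, in the direction of transcription) in the 4 conditions, drawn to scale. Ch25h is covered over 75.5 kb in WTLPS and 32.0 kb in KOLPS, and Ptgs2 over 14.2 kb in WTLPS and 0.8 kb in WT.

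Counted as peaks, the same lists gave another picture, and the median H3K27ac peak was 369, 392, 271 and 242 bp wide in the order WT, WTLPS, KO, KOLPS, whose part in it was not tested. Ch25h had 50, 82, 50 and 88 peaks, Ptgs2 had 3, 34, 9 and 19, and Nos2 had 9, 15, 12 and 20. Acod1 had 46 in WT and only 30 in WTLPS although more of its bases were covered in WTLPS, and Sod2 had 19 and 14. Only Ch25h, Nos2 and Ptgs2 had more peaks in WTLPS than in WT (24.3% of genes). The ratio of KOLPS to WTLPS over the members was 1.13 in peaks, against 0.582 in bases covered. Over all genes the same ratios were 1.14 and 0.629, so the split was not particular to the members.

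At promoters, H3K27ac separated Nos2 and Ptgs2 from the rest. Nos2 had no H3K27ac promoter peak in WT or KO and peaks of up to 4.55-fold in WTLPS and 6.59-fold in KOLPS, a pattern found at 0.36% of genes. Those strongest peaks rested on 9 fragments in WTLPS and 11 in KOLPS, the latter with its summit 2393 bp upstream. Nearer the start, a peak of 7 fragments was called 353 bp upstream in WTLPS and 351 bp upstream in KOLPS. At background coverage a peak needed at least 6 fragments in WT and WTLPS and 5 in KO and KOLPS. Ptgs2 had none in WT, 6 in WTLPS and 2 each in KO and KOLPS, the strongest in WTLPS at 6.37-fold. Its KO peaks rested on 6 and 7 fragments, and its KOLPS peaks on 7 each. A promoter peak in WTLPS and none in WT was found at 2.29% of genes. The strongest promoter peaks of Sod2 were 7.82, 20.02, 21.2 and 20.5-fold for WT, WTLPS, KO and KOLPS, so only unstimulated WT stood apart. Those of Acod1 were 8.74, 15.0, 13.7 and 12.2, and those of Ch25h were 3.22, 8.65, 8.01 and 5.55. Of these Ch25h peaks only that of WT had its summit inside the promoter, 1842 bp downstream of the start. The WTLPS, KO and KOLPS summits lay 2967, 3039 and 2603 bp downstream, and these peaks only reached into the promoter. The strongest Ch25h peaks with a summit inside it were 4.55-fold in WTLPS and 4.998-fold in KOLPS, and KO had none. Arg1 had peaks in all conditions, at 4.60, 5.01, 7.44 and 7.22-fold. The KO and KOLPS summits of these lay 3202 and 2568 bp upstream, outside the promoter that the peaks overlapped. The strongest Arg1 peaks with a summit inside the promoter were 6.86-fold in KO and 4.44-fold in KOLPS. In all 4, 6, 5 and 6 of the 6 promoters were marked in WT, WTLPS, KO and KOLPS, against 45.2%, 42.1%, 45.6% and 41.8% of all.

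H3K4me3, by contrast, was already in place before stimulation at 5 of the 6 promoters. Acod1, Ch25h, Ptgs2, Sod2 and Arg1 had a peak in all 4 conditions, as did 56% of genes, and Nos2 had none in any, as was so for 39.5%. The H3K27ac promoter peaks of Nos2 thus lay where no H3K4me3 peak was called. At Acod1 the H3K4me3 fold was 19.3 in WT and 18.6 in WTLPS but 6.36 in KO and 9.87 in KOLPS, so both KO libraries were lower. At Sod2 it was 39.9, 41.3, 38.2 and 31.5, and at Ch25h 21.5, 16.7, 16.8 and 14.6. At Ptgs2 the fold was 8.52, 11.1, 6.81 and 9.40, and its width was 1719 bp in WT against 3523 bp in WTLPS. Arg1 had the smallest, between 5.45 and 7.89.

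H3K4me1 marked all 6 promoters in every condition, as it did 44.8% of genes. H3K27me3 was found at 4 promoters. Ch25h had it in all 4 conditions (10.6% of genes), with strongest folds of 3.18, 3.96, 3.12 and 3.53. Acod1 had it in WT and in no other list, at up to 3.92-fold, and 8.26% of genes had a peak in WT and none in WTLPS. Ptgs2 had it in WT (2.93), WTLPS (3.28) and KO (3.35), and Nos2 in KO alone (3.05). Sod2 and Arg1 had none, as was so for 66.3% of genes. All of these folds were low, and the H3K27me3 lists themselves held 96475, 65880, 95080 and 26960 peaks, so the absence of a KOLPS peak at any gene goes with a shorter list.

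CTCF peaks around the members were fewer in the KO lists but were not all absent. The counts in WT, WTLPS, KO and KOLPS were 17, 16, 7 and 6 at Acod1, 9, 7, 4 and 3 at Ch25h, and 20, 21, 8 and 5 at Nos2. They were 5, 4, 0 and 0 at Ptgs2, 13, 12, 8 and 4 at Sod2, and 9, 7, 3 and 0 at Arg1. All 6 had fewer in KO than in WT (84.8% of genes) and fewer in KOLPS than in WTLPS (87.4%). The summed ratio was 0.411 for KO to WT (0.259 to 0.637) and 0.269 for KOLPS to WTLPS (0.150 to 0.457), where all genes gave 0.341 and 0.215. In bases covered these were 0.268 and 0.127, and 0.203 and 0.105 over all genes. With −log10 q of at least 10 they were 0.269 and 0.176, and 0.234 and 0.134 over all genes. Of the 73 WT peaks, 25 were overlapped in KO, a share of 34.2% against 23.7% over the list, and they were the stronger ones, with a median fold of 20.9 against 5.70 for the rest. Between unstimulated and LPS-stimulated WT cells most sites were shared, 63 of the 73 (86.3%) being overlapped in WTLPS, against 79.4% over the list.

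**Figure D5:**
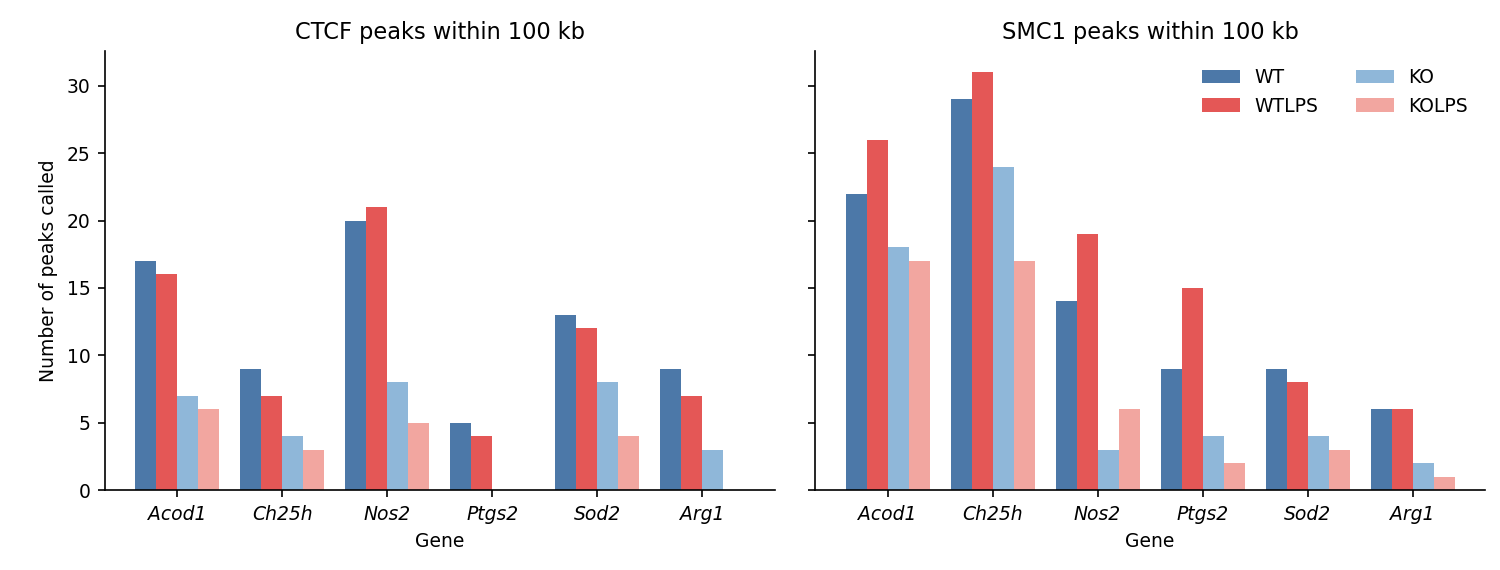
Number of CTCF and SMC1 peaks within 100 kb of the start of each member in the 4 conditions. All 6 members have fewer of both in KO and KOLPS than in WT and WTLPS, and SMC1 at Ch25h still stands at 17 peaks in KOLPS.

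At promoters CTCF was seen in 3, 3, 2 and 2 of the 6 in WT, WTLPS, KO and KOLPS (30%, 27.6%, 19.6% and 10.4% of all genes). Nos2 and Sod2 had a peak in all 4 (7.37% of genes), and Ptgs2 had one in WT and none in KO (16.7%). The Nos2 site, 2.39 kb downstream of the start in WT, had folds of 16.9, 15.9, 8.10 and 4.97. The Sod2 site, beside its p65 peak, had folds of 25.7, 19.4, 7.09 and 5.50. Both were weaker in the KO libraries yet still called. A site 4.6 kb past the Acod1 start was of the same kind, at 29.7, 15.9, 7.20 and 4.27, where SMC1 had 29.96 in WT (rank 68), 17.5 in WTLPS, 4.36 in KO and no peak in KOLPS. The strong Arg1 site 33.8 kb upstream was 33.1, 25.2 and 5.32 and had no peak in KOLPS.

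SMC1 peaks were likewise fewer in the KO lists, where Acod1 and Ch25h had the most left. Acod1 had 22, 26, 18 and 17 SMC1 peaks and Ch25h 29, 31, 24 and 17. Nos2 had 14, 19, 3 and 6, Ptgs2 9, 15, 4 and 2, Sod2 9, 8, 4 and 3, and Arg1 6, 6, 2 and 1. All 6 had fewer in KO than in WT (83.6% of genes) and fewer in KOLPS than in WTLPS (85.1%). The summed ratio of KO to WT was 0.618 (0.433 to 0.875), with 0.460 over all genes just inside the interval. That of KOLPS to WTLPS was 0.438 (0.303 to 0.625), where all genes gave 0.297. With −log10 q of at least 10 it was 0.262 where all genes gave 0.142, and in bases covered 0.303 where all genes gave 0.209, so its size depended on the setting. Neighbouring peaks share a locus and are not independent, so these intervals are narrower than the true error. Acod1 and Ch25h, with 17 peaks each in KOLPS, were chosen partly for SMC1 peaks in these same lists. The distance of the summed ratios from all genes is therefore a description, and no test was made on it.

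SMC1 peaks were more numerous in WTLPS than in WT at 4 members, Acod1, Ch25h, Nos2 and Ptgs2, as at 17.8% of genes. The summed ratio was 1.18 (0.881 to 1.58), an interval that includes both 1 and the 0.886 over all genes. Of the 105 WTLPS peaks, 67 (63.8%) overlapped a WT peak, where the list gave 81.9%. Ptgs2 had the lowest overlap of the 6, 5 of 15, and its other peaks included one at the distal p65 site, with an SMC1 fold of 9.46 in WTLPS and no SMC1 peak in the other lists. Another lay at the promoter, 102 bp upstream, with a fold of 4.58. At Acod1 16 of 26 overlapped.

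SMC1 promoter peaks were found at 4, 5, 2 and 2 of the 6 in WT, WTLPS, KO and KOLPS (31.1%, 27.5%, 22.1% and 14.2% of genes). At the Acod1 start itself a peak was called in WTLPS, with a fold of 5.54, and in KOLPS, with 3.82, while the WT peak of 4.84 lay 1.79 kb inside the gene. The Ch25h promoter counted in WTLPS only because a peak 3.4 kb downstream was broader there. That peak was in all 4 lists, with folds of 12.96, 18.0, 6.94 and 5.82 and widths of 1399, 1949, 1178 and 764 bp. Sod2 had SMC1 at its intron site with folds of 11.4, 11.5, 6.15 and 6.37. Nos2 had an SMC1 peak of 10.9-fold in WT and 11.1-fold in WTLPS and none in either KO list, although CTCF was called there in all 4. Arg1 had an SMC1 promoter peak only in KO, at a fold of 3.94.

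STAT5, activated by GM-CSF, was measured without LPS. Acod1 had 4 peaks within the window in WT and 4 in KO, Ch25h 7 and 4, Nos2 0 and 1, Ptgs2 1 and 1, Sod2 4 and 3, and Arg1 2 and 0. The strongest belonged to Ch25h, 88.6 kb downstream (23.2 in WT, 17.4 in KO) and 10.5 kb downstream (19.3 and 13.7), and to Sod2, 22.7 kb upstream (22.8 and 19.97). The p65 sites that also carried STAT5 in both lists included the Acod1 site 30.9 kb upstream, with STAT5 folds of 8.16 and 8.50, and the Ptgs2 site 65 kb downstream, with 7.30 and 8.50. At promoters, Arg1 had a peak in WT alone, of 7.30-fold, and Sod2 in KO alone, of 4.07-fold, where 4.08% and 3.4% of genes had one. The STAT motif TTCNNNGAA, searched on both strands, was found near the summit of 4 of the 18 WT peaks and in 37.9% of the list. The summed counts of 18 and 13 give a ratio of 0.722 (0.325 to 1.56), which counting error does not separate from 1.

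The promoter pattern over all 30 lists was set beside that of every other protein-coding gene, as the mean agreement of percentile ranks. Sod2, with promoter peaks in 25 lists, was most like Tnfaip3 (90.3%), Nfkbia (89.0%) and Nfkb2 (83.7%), all of them NF-κB pathway genes, where the median gene stood at 42.6%. Acod1, with 19 lists, was most like Cxcl10 (87.7%), Fpr1 (86.3%) and Mcemp1 (85.8%). The genes most like Ch25h included Mettl14 (87.5%) and Tslp (87.4%), and Nos2 was closest to Foxs1 (90.9%), Otos (90.3%) and Cfd (90%). Ptgs2 was closest to Lyzl4 and Vipr1 (both 89.1%) and Cntnap1 (88.4%), and Arg1 to Tmem37 and Fbxl5 (both 93.1%) and Bst1 (92.5%). For these 4 the median gene already stood between 67.7% and 72.4%.

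Of the other 64 genes of the members' pathways, most had no p65 promoter peak, 3 having one in unstimulated WT cells, 10 in WTLPS (15.6%, where 2.86% of all genes had one), 3 in KO and 8 in KOLPS cells. The 64 included receptors, transporters and enzymes that act beside the members. A p65 promoter peak in both WTLPS and KOLPS was found at 5 of them. Those named for p65 below all had one in WTLPS, so genes with one in KOLPS and none in WTLPS are left out. Among oxysterol and cholesterol genes, Abca1, a cholesterol exporter, had folds of 8.76, 14.6, 5.28 and 9.36 in WT, WTLPS, KO and KOLPS. Nr1h3, the oxysterol receptor LXRα, had 9.70 in WTLPS and 17.6 in KOLPS, one of the cases higher in KOLPS. Among arginine genes, Arg2, the mitochondrial arginase, and Slc7a2, an arginine transporter, had 6.47 and 8.62 in WTLPS alone. Ptges, which makes prostaglandin E from the product of Ptgs2, had 18.3 in WTLPS and 8.81 in KOLPS, and the prostaglandin receptor Ptger2 had 5.93 in WTLPS alone. The NADPH oxidase subunits Cybb and Cyba, which make superoxide, were occupied in all conditions, Cybb with folds of 11.7, 14.0, 9.38 and 8.81 and Cyba with 6.42, 9.16, 7.04 and 11.01. Among TCA cycle genes only Cs, citrate synthase, had a p65 promoter peak, of 5.93 in WTLPS. Between WT and WTLPS, 4 of the 64 had an H3K27ac promoter peak in WT alone (Idh2, Idh3a, Ptgs1 and Alox5), which is 6.25% where all genes gave 5.39%, and 0 in WTLPS alone, where all genes gave 2.29%, and 0 differed in H3K4me3. Within these lists only Nos2 and Ptgs2 had an H3K27ac promoter peak in WTLPS and none in WT.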

How the data were processed

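ChIP-seq of 8 antibodies in 4 conditions gave 30 peak lists (22 narrow, 8 broad, the latter for H3K4me1 and H3K27me3), with 1 list per group and no replicates. The authors mapped paired reads to mm10 (BWA), discarded duplicates (Picard) and found peaks (MACS2). The submitters' processing notes name BWA 0.7.12, Picard 1.77 and MACS2 2.1.2, and the methods of the study name other versions of each. The deposited fold enrichment of a narrow peak is its summit fragments plus 1, divided by the local background plus 1. A fold is therefore lower than the plain ratio, and the same plain ratio gives another fold at another background. The deposited p-values and q-values are on the −log10 scale. The CTCF and SMC1 lists hold only peaks of −log10 p of at least 7, and problem regions had been removed from the p65 lists. The methods describe biological replicates and their merging, but whether a list stands for 1 replicate or merged data is not given in the labels. For H3K4me1 the supplier in the peak names differs from the labels, and for STAT5 the catalogue number differs between labels and methods.

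Genes were those of GENCODE vM21. Around the start of its longest transcript, each gene was given a promoter of 2.5 kb and a window of 100 kb to both sides, with a minimum overlap of 1 bp. Fragments at each summit were recovered from fold and −log10 p, with a tolerance of 0.002 in −log10 p, and the recovery was tested on simulated data. Ratios carry exact 95% intervals. Both strands around each summit (50 bp to either side) were searched for motifs. The members and gene lists were chosen with earlier results of these data known. The 6 members were named throughout, with the 3 genes of most similar promoter pattern for each (outside 5 kb) and pathway genes with a p65 promoter peak in WTLPS or a difference in H3K4me3 or H3K27ac between WT and WTLPS. Some results that this rule names are not reported here. Alternatives were other windows, promoters, thresholds, starts, coverage, counting rules and each member left out. Python 3.11.15, numpy 2.4.6, pandas 2.3.3, scipy 1.17.1 and matplotlib 3.10.9 were used.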

Additional observations from a re-analysis of the deposited data

How the results depend on the processing

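No paired analysis was possible because each group has 1 sample. Of the ratios of peak numbers under other settings, 127 stayed within their interval, 7 moved out of it and 1 turned its direction. The last was H3K27ac in KOLPS relative to WTLPS, 0.582 in bases covered where peak numbers gave 1.13. All genes gave 0.629 and 1.14 for the same. In bases covered, the CTCF ratio of KOLPS to WTLPS was 0.127, that of SMC1 was 0.303, and the H3K27ac ratio of WTLPS to WT was 1.91. With −log10 q of at least 10, the SMC1 ratios were 0.424 for KO to WT and 0.262 for KOLPS to WTLPS. All genes gave 0.254 and 0.142 for these. The H3K27ac ratio of WTLPS to WT was 2.07 at that threshold. In numbers of all listed peaks it was 1.34, where all genes gave 0.870, and leaving out Acod1 gave 1.69. Of the counts of marked promoters, 110 stayed within 1.5 times and 40 did not. With a promoter of 1 kb, p65 was at 1 member in WT, 1 in KO and 0 in KOLPS, since the Sod2 site lies outside. SMC1 was then at 0 in WT, 2 in WTLPS and 1 in KOLPS, CTCF at 0 in every list, STAT5 at 0 in KO, and H3K27me3 at 0 in WTLPS, KO and KOLPS. With a promoter of 5 kb, SMC1 was at 5 in KO and 4 in KOLPS, CTCF at 5 in WT and in WTLPS, STAT5 at 2 in WT and H3K27me3 at 2 in KOLPS. H3K27me3 in KOLPS was also at 2 with the starts of all transcripts. With a stricter −log10 q (10 for narrow and 3 for broad lists), p65 was at 1 in KO, SMC1 at 1 in KO and in KOLPS, CTCF at 0 in KOLPS and STAT5 at 0 in both. H3K27ac was then at 2, 3, 3 and 2 in WT, WTLPS, KO and KOLPS, H3K4me3 at 2 in KO, H3K4me1 at 2, 3, 1 and 1, and H3K27me3 at 0 in every list. For κB matches, chosen after seeing the data, 1 mismatch gave 2 sites and the whole site gave 4, where the exact search gave 1. Apart from these, the cause of each shift was not tested. What limits all values is the single list per group, with p65 peaks resting on as few as 8 fragments.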
